A study of Mus musculus with 28 samples.

Results

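Transcripts of 7 genes of cholesterol synthesis and its control were followed in single mouse brain cells. They were Srebf2 and Insig1, which regulate the pathway, and Hmgcs1, Fdft1, Sqle, Cyp51 and Dhcr7, which encode enzymes of it. The genes were chosen by name, and all 7 of them were found among the 23453 genes of the exonic count table and among the 20422 genes of the intronic count table. All 7 also passed a filter of at least 10 exonic counts in at least 8 cells, which 11105 genes passed. None of the 7 is itself an uptake receptor, and uptake is described below through other genes of the pathway.

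The 28 cells of the series were, by their labels, 8 astrocytes and 12 neurons in primary culture of C57/BL6 cortex, each taken with a pipette, and 8 interneurons of C57/BL6/N mice taken with a patch-clamp pipette from acute slices of prefrontal cortex. For the cultured cells the labels describe a 3-month-old male mouse perfused with fixative, which does not say how the cultures were made. The paper describes its dispersed mouse cultures as embryonic, mixed from both sexes, and the 3-month-old male as the source of its brain sections. No label ties a cell to an animal or a culture. Cultured cells were made into libraries with a modified TruSeq Nano DNA kit and slice cells with a TruSeq Stranded kit. The columns of the count tables carry codes, BRP or F with a number, and 0 of 28 codes could be matched to a labelled sample. The cells are therefore described by blocks of codes. These are the 8 columns BRP564 and BRP566 to BRP572 (here the BRP564 block), the other 12 BRP columns (the other BRP block) and the 8 F columns (the F block). By block size and marker genes they are presumed to be astrocytes, neurons and interneurons in that order, but the labels do not say so. The line between the BRP blocks was drawn with marker levels of these cells in view. Differences between blocks are accordingly given as descriptions, with medians and ranges over cells and no test. If the F columns are the slice cells, the cell type, the preparation and the library kit cannot be told apart in any comparison with them.

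Brain cells make almost all of their own cholesterol, because lipoproteins of the blood do not cross the blood-brain barrier, and astrocytes are known to supply neurons with cholesterol on apolipoprotein E particles. SREBP2, the protein of Srebf2, is held in the endoplasmic reticulum by the SCAP and INSIG proteins while sterol is plentiful. When sterol falls it is cut by 2 proteases and its released part enters the nucleus, where it binds sterol regulatory elements in the promoters of synthesis and uptake genes. Among those targets are Insig1, which closes the loop, and Srebf2 itself.

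To show that element in its place, RefSeq promoter windows of the GRCm38.p6 assembly (250 bases before to 50 bases after each annotated start) were searched on both strands for the core sequence TCACCCCA. Windows were found for 5 of the 7 genes, and Sqle and Fdft1 had none in the table used here. The 5 genes had 7 windows, as Dhcr7 has 3 annotated starts, and the core was present in 2 of the 7, against 1.56% of 32851 promoters. It started 137 bases before the start of Hmgcs1 and 162 bases before that of Srebf2. Both windows are printed 5′ to 3′ with the core in capitals.
Hmgcs1 promoter, chr13:119690101-119690400, plus strand: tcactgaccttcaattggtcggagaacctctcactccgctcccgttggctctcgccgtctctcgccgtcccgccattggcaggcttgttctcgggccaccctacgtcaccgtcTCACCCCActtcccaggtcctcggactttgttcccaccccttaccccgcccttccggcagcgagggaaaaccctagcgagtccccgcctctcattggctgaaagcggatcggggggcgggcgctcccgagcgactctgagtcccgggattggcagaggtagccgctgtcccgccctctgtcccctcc
Srebf2 promoter, chr15:82147019-82147318, plus strand: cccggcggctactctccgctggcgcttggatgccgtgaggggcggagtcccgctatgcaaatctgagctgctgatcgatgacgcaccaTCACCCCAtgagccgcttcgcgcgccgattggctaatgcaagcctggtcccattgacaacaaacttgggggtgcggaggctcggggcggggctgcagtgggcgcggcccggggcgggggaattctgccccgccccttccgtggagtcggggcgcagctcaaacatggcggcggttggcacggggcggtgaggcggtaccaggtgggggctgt
The other motifs searched were short and common. CCAAT, the letters bound by NF-Y, stood in 37.4% of all promoters and GGGCGG, the letters bound by Sp1, in 35.7%, and both were found in a window of all 5 genes. The E-box CACGTG stood in 7.15% of all promoters and in windows of Insig1 and Dhcr7. None of the 4 motifs contains another, and a match of letters is a description of the window and not a measured binding site.

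Exonic totals were between 12969692 and 26770944 counts in the 20 BRP columns and between 838343 and 14831505 in the F columns. The median number of genes with an exonic count was 12111 in the BRP564 block, 11366.5 in the other BRP block and 4912 in the F block. Intronic counts made up a median of 8.75%, 15.7% and 50.4% of all counts in the same order. Summed astrocyte markers (10 genes, among them Aqp4 and Gfap) were 2760 to 7237 CPM (a gene's exonic counts per 1000000 exonic counts of the cell) in the BRP564 block, 212.6 to 2463 in the other BRP block and 1.19 to 4363 in the F block. Summed neuron markers (7 genes) were 299.5 to 800.8, 4898 to 9982 and 1608 to 17800 CPM. Interneuron markers (9 genes) summed to 8.23 to 190.3, 0.538 to 3124 and 565.1 to 11886 CPM. Oligodendrocyte markers summed to 546.6 to 1305 CPM in the BRP564 block, where the defining genes Mog and Mag were at 0 in every cell. In the other BRP block these markers summed to 1004 CPM in BRP529, 774.3 in BRP541 and 742.5 in BRP528, and to between 0.517 and 68.7 CPM in the 9 other cells. BRP528 and BRP529 also held all 10 astrocyte markers at 1 CPM or more. BRP528 was the cell with 3124 CPM of interneuron markers, and it held 0.0498 CPM of excitatory neuron markers (5 genes). Among the F columns, the high sums of glial markers in F7, F11, F12 and F16 came mainly from 1 gene each. Of the other F columns, F1 held 637.1 CPM of Slc1a2 and 204.8 CPM of Aldoc, F24 556.1 CPM of Aldoc and F2 182.6 CPM of Gja1, all listed astrocyte markers. The astrocyte sum of F7 was 4363 CPM, of which Slc1a2 made up 4350 CPM, the one listed astrocyte marker with a higher median in the other BRP block than in the BRP564 block (803.6 against 191.7 CPM). F11 and F12 held 1063 and 1180 CPM of Sox9 and at most 6.38 CPM of all other astrocyte markers. The oligodendrocyte sum was mainly Olig1 in F7 (3210 of 3387 CPM) and Mobp in F11 and F12 (1436 and 1293 CPM). F16 held 2093 CPM of the microglial gene Csf1r and 0 of the other 4 microglial markers. Aldh1l1 and S100b were at 0 in all 8 F columns. The summed level, the counts of genes at least 2-fold higher than in the F block and some F medians are also given without F7, F11, F12 and F16. All other F values include them.

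The 7 genes together had their highest median in the BRP564 block. Their summed level ran from 1014 to 4755 CPM there, with a median of 1435. In the other BRP block it ran from 268.4 to 2377 CPM with a median of 765.1, and in the F block from 0.37 to 2077 CPM with a median of 214.1. Without F7, F11, F12 and F16 the F median was 287.3 CPM, and with the 4 F columns under 5000000 exonic counts left out it was 588.6 CPM. The latter setting keeps F7. The order of the blocks turned on the scaling. With DESeq2 size factors the medians were 590.3 in the BRP564 block, 451.0 in the other BRP block and 563.4 in the F block. The ranges of all 3 blocks overlapped. BRP568 stood highest of the BRP564 block, and the next of those 8 cells, BRP569, held 1827 CPM. In the other BRP block, BRP541, BRP542 and BRP543 formed the top with 2067, 2377 and 1833 CPM, and the 9 other cells were at or below 1020 CPM.

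The make-up of the sum changed from cell to cell in the F block and was led by Hmgcs1 in most BRP cells. Hmgcs1 was the most abundant of the 7 in all 12 cells of the other BRP block and in 7 of 8 cells of the BRP564 block, the exception being BRP564, which Sqle led. F11, F12 and F16 had at most 18 counts of the 7 genes and were not ranked. In the other 5 F columns, 4 of the 7 genes led, Fdft1 in F1, Cyp51 in F2 and F24, Sqle in F6 and Dhcr7 in F7. The leading gene held a median of 51.4% of the sum in the BRP564 block, 57.3% in the other BRP block and 83.2% in these 5 F columns.

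**Figure D1:**
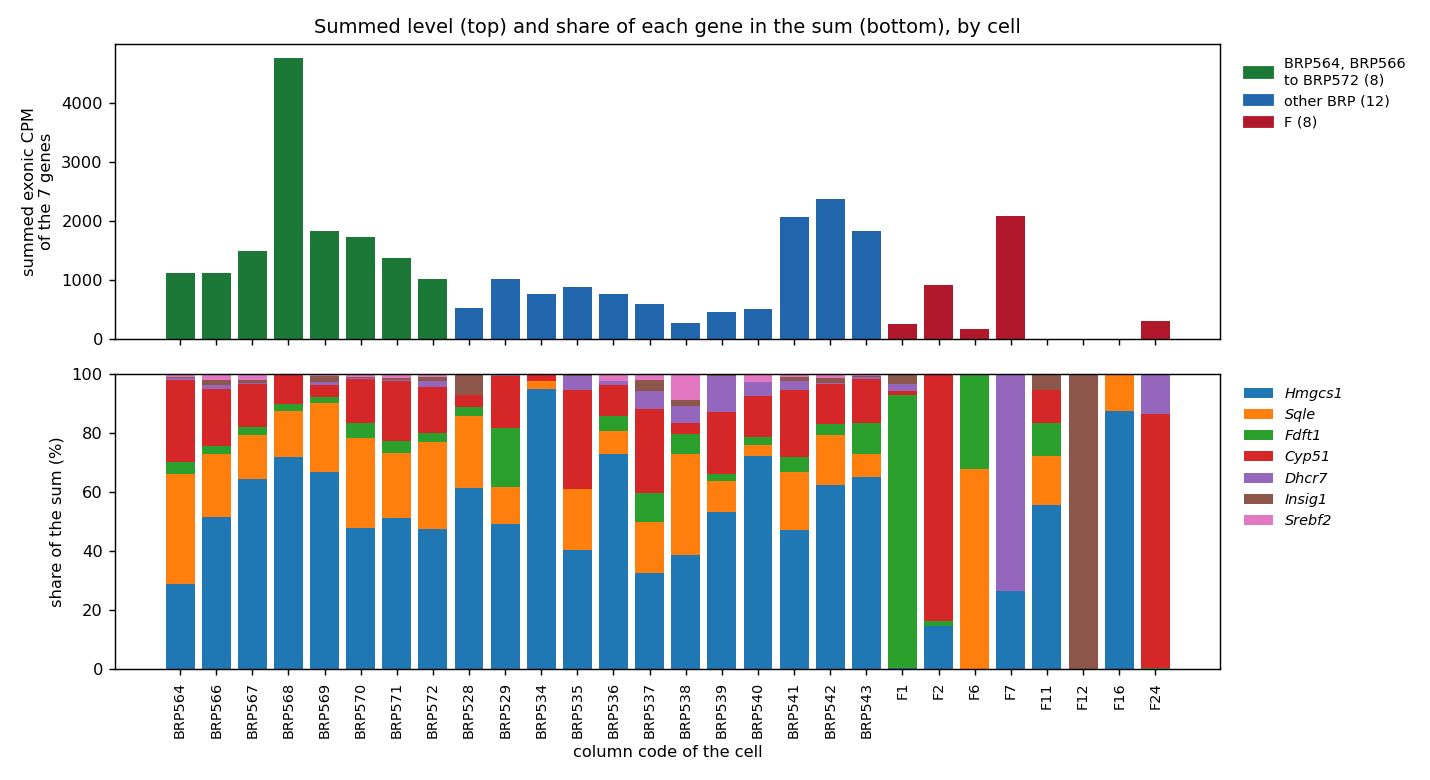
Summed exonic level of the 7 genes in CPM (top) and the percent of that sum held by each gene (bottom), 1 bar for each of 28 cells, coloured by block of column codes at the top and by gene at the bottom. BRP568 reaches 4755 CPM, Hmgcs1 is the largest part of all but 1 of the BRP bars, and the bars of F1, F2, F6 and F7 are led by 4 different genes.

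All 56 pairs of a gene and a cell had at least 10 exonic counts in the BRP564 block, as had 79 of 84 pairs (94.0%) in the other BRP block and 16 of 56 pairs (28.6%) in the F block. All 7 genes reached that count together in 8, 9 and 0 cells. With every cell thinned to the 838343 counts of the shallowest F column, the pairs with at least 10 counts became 44, 63 and 11, and those with at least 1 count 55 of 56, 78 of 84 and 19 of 56. Fewer genes of any kind were seen in the thinned F cells as well, with a median of 2928 against 10437 in the BRP564 block and 9322 in the other BRP block.

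The regulators come first. Srebf2 (chr15:82147181-82205379, plus strand, GRCm38) encodes the sterol-controlled transcription factor. Its exonic level was 7.28 to 33.8 CPM in the BRP564 block with a median of 14.8, and 0.05 to 31.3 CPM in the other BRP block with a median of 11.8. It was at 0 in all 8 F columns, which allows up to 3 counts over the block, or 0.0586 CPM. A count of 0 throughout the F block was not rare, since it held for 8.75% of the 9533 filtered genes with a BRP median of at least 1 CPM. Cells of the other BRP block spread widely in exonic counts, as BRP528 held 1 exonic count of Srebf2 and BRP539 held 19, while BRP542 held 643. Their intronic counts of Srebf2 were 985, 324 and 1988 in the same order.

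Srebf2 also differed from the other 6 genes in where its reads fell. Over the 20 BRP columns it had 5242 exonic and 21717 intronic counts, an intronic share of 80.6%. Of the 12804 genes with at least 1000 counts there in both tables together, 19.6% likewise had more intronic than exonic counts, and of the 7 genes Srebf2 alone did. The intronic share of Srebf2 within a cell ran from 15.3% to 79.6% in the BRP564 block with a median of 66.2%, and from 21.1% to 99.9% in the other BRP block with a median of 87.5%. Intronic counts exceeded exonic ones in 6 of 8 and 11 of 12 cells. Per kilobase the order was the reverse, because the annotated introns cover 51.0 kb and the exons 7.18 kb. Over the BRP columns there were 425.7 intronic counts per kb of intron and 729.7 exonic counts per kb of exon.

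The choice of reads turned the direction for Srebf2. On exonic CPM the median of the BRP564 block was 1.26 times that of the other BRP block, and with exonic and intronic counts added up it was 0.739 times that median. In the F block, where Srebf2 had no exonic count, it had 151 intronic counts, 120 of them in F24. With those counted, the F block and the other BRP block overlapped. At least 1 intronic count of Srebf2 was seen in 6 of the 8 F columns, and at least 10 in only 2 of them. Intronic counts of all genes made up a median of 50.4% of the counts in these columns.

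Srebf2 is the host of a microRNA gene, Mir33 (chr15:82198122-82198190, plus strand), which lies within its span and is known to act on cholesterol export genes such as Abca1. Mir33 had 0 exonic counts in all 28 cells and was not listed in the intronic table. The level of the mature microRNA was not measured here. Its mature forms from RefSeq are shown 5′ to 3′ because they lie in the intron-rich host just described, with the seed, bases 2 to 8, in capitals.
mmu-miR-33-5p: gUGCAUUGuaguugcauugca
mmu-miR-33-3p: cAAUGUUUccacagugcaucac
The 2 seeds differ from each other.

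**Figure D2:**
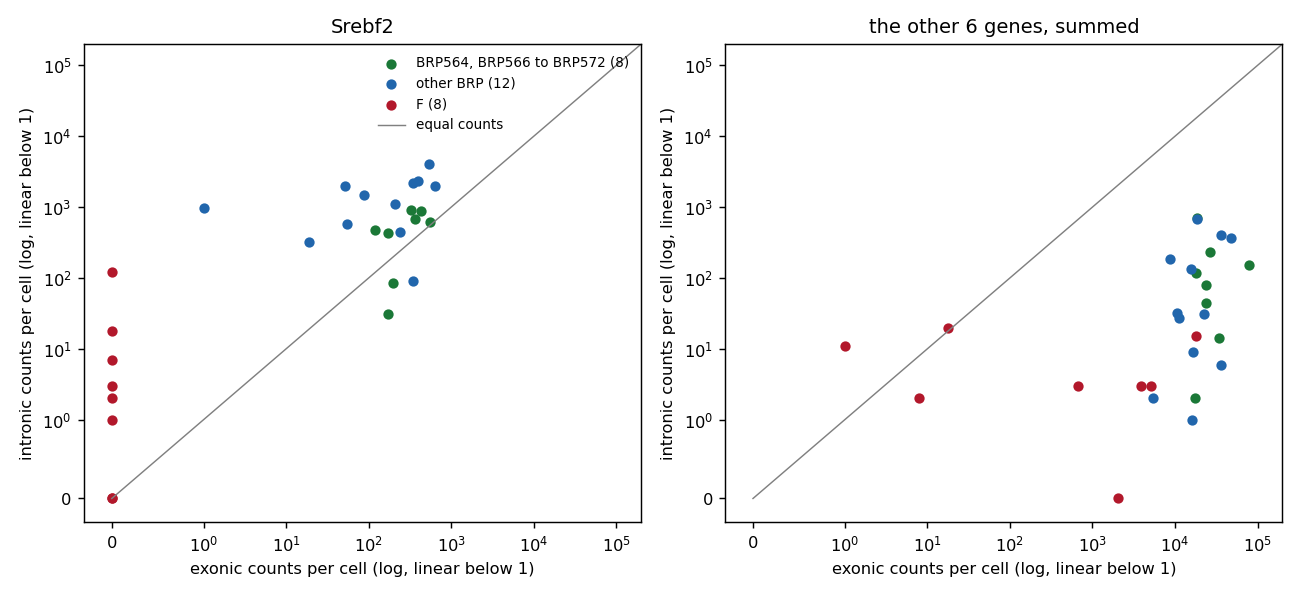
Intronic against exonic counts per cell for Srebf2 (left) and for the other 6 genes summed (right), both axes logarithmic and linear below 1, 1 point per cell coloured by block, with a line of equal counts. Srebf2 lies above the line in 17 of 20 BRP cells, while all 20 BRP cells lie below it for the other 6 genes.

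Insig1 (chr5:28071363-28078662, plus strand) encodes a membrane protein that retains SCAP and SREBP when sterol is high, and it is itself an SREBP target. It was at 1.88 to 37.6 CPM in the BRP564 block with a median of 10.4. In the other BRP block it ran from 0.095 to 45.1 CPM with a median of 4.34, and in the F block from 0 to 9.03 CPM with a median of 0.114. The BRP medians stood 2.39-fold apart, yet the ranges overlapped throughout. The highest cells of the other BRP block were BRP542 (45.1 CPM), BRP528 (36.9 CPM) and BRP541 (33.7 CPM), and only 2 counts were seen in BRP534. BRP528 thus paired a high Insig1 level with 1 exonic count of Srebf2, but it also held 985 intronic counts of Srebf2. F1 held 134 of the 139 Insig1 counts of the F block. Insig1 had 13 intronic counts in all, 11 of them in a single cell, and its introns cover 4.21 kb.

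Of the enzymes, Hmgcs1 (chr13:119690379-119708260, plus strand) stands first in the pathway. It encodes the cytosolic HMG-CoA synthase, which condenses acetoacetyl-CoA with acetyl-CoA. Hmgcs1 ran from 321.1 to 3416 CPM in the BRP564 block with a median of 763.4, from 103.8 to 1483 CPM in the other BRP block with a median of 434.7, and from 0 to 551 CPM in the F block with a median of 1.51. It was found with at least 10 counts in every BRP cell and in 4 of 8 F cells. Only F7 and F2, with 551 and 134.2 CPM, reached the range of the BRP cells. Per kilobase of exon, Hmgcs1 had the highest median of the 7 in both BRP blocks, with 166.2 and 94.6 CPM per kb.

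Fdft1 (chr14:63145150-63179578, minus strand), squalene synthase, commits farnesyl diphosphate to sterols. It was at 29.2 to 119 CPM in the BRP564 block with a median of 43.5. In the other BRP block it ran from 0 in BRP534 to 205.1 CPM in BRP529 with a median of 28.4, a wider spread than the 4.08-fold range of the BRP564 block. In the F block it was at or below 0.945 CPM in 5 cells and reached 13.9 CPM in F2, 54.0 CPM in F6 and 240.8 CPM in F1. The level in F1 exceeded that of all 20 BRP cells.

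Sqle (chr15:59315077-59331192, plus strand), squalene epoxidase, carries out the first oxygen-dependent step and is a known control point of the pathway. Its BRP564 block was the narrowest of the 7 genes, from 224.8 to 739.2 CPM with a median of 359.2. The other BRP block ran from 19.3 to 411.5 CPM with a median of 114.6, so that the medians stood 3.14-fold apart. Only BRP541 and BRP542, with 411.5 and 397.7 CPM, lay inside the BRP564 range, and the other 10 cells were below its lowest cell. In the F block Sqle was at or below 1.19 CPM in 7 cells and at 114.2 CPM in F6.

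Cyp51 (chr5:4081145-4104746, minus strand), the lanosterol demethylase, opens the conversion of lanosterol to cholesterol. It ran from 74.3 to 455.8 CPM in the BRP564 block with a median of 238.0, and from 9.68 to 468.6 CPM in the other BRP block with a median of 134.0. The low end of the latter was formed by BRP538, BRP534 and BRP528 with 9.68, 14.8 and 21.2 CPM. The F block had 763 CPM in F2, above all 20 BRP cells, 270.7 CPM in F24 and at most 3.24 CPM in the other 6.

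Dhcr7 (chr7:143823145-143848410, plus strand) encodes the reductase of the last step of one branch of the pathway, and it was the only one of the 7 with a lower median in the BRP564 block than in the other BRP block. It ran from 2.84 to 23.5 CPM with a median of 10.9 there, and from 0.349 to 59.9 CPM with a median of 13.8 in the other BRP block. The BRP564 median was 0.787 times the other, and the ranges overlapped. In the F block Dhcr7 was at 0 in 4 cells, at 5.06 to 41.6 CPM in 3 and at 1526 CPM in F7, where it had 13264 counts. The highest of all 20 BRP cells held 59.9 CPM. F7 is the cell with high Slc1a2 and Olig1 given above, whose part in this level was not tested. The Dhcr7 median of F1, F2, F6 and F24 was 5.56 CPM.

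**Figure D3:**
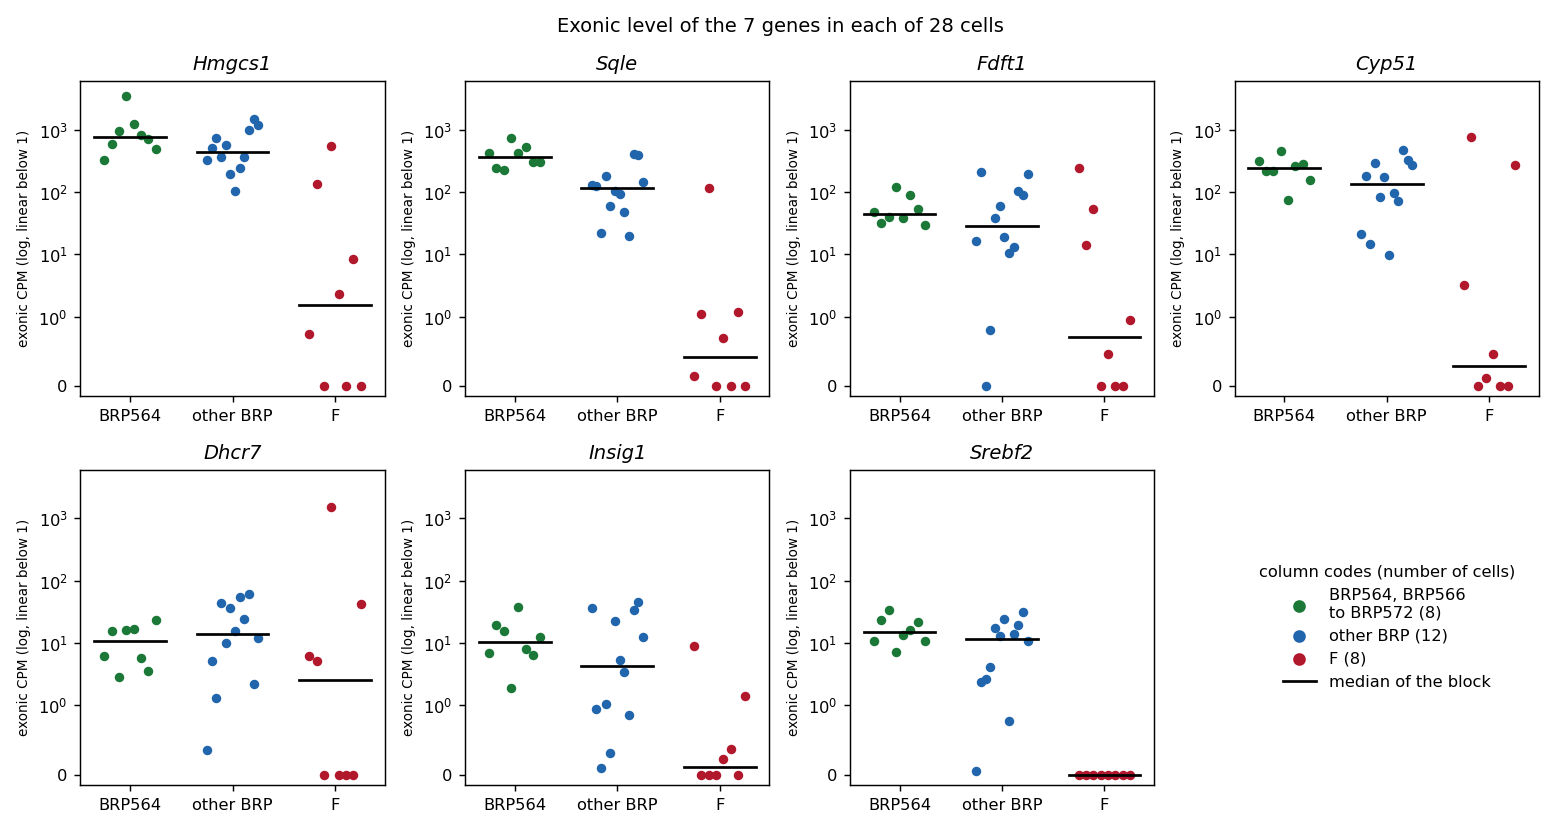
Exonic CPM of each of the 7 genes in each of 28 cells, on an axis that is logarithmic above 1 and linear below, with points coloured by block and a bar at the block median. The BRP blocks overlap for every gene, Srebf2 is at 0 in all 8 F cells, and Dhcr7 has a single F cell at 1526 CPM.

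Compared per kilobase of exon, the order of the median levels in the BRP564 block was Hmgcs1 (166.2 CPM per kb), Sqle (64.8), Cyp51 (53.9), Fdft1 (10.3), Insig1 (3.35), Srebf2 (2.07) and Dhcr7 (1.87). For the other BRP block it was Hmgcs1 (94.6 CPM per kb), Cyp51 (30.3), Sqle (20.7), Fdft1 (6.73), Dhcr7 (2.38), Srebf2 (1.64) and Insig1 (1.40). Hmgcs1, Sqle, Cyp51 and Fdft1 took the first 4 places in both blocks. Sqle and Cyp51 changed places, as did Insig1 and Dhcr7, while Srebf2 held the sixth place in both.

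Between the BRP blocks, the median was at least 2-fold higher in the BRP564 block for 2 of the 7 genes, Sqle and Insig1. This was the case for 38.5% of all filtered genes. A median at least 2-fold higher in the other BRP block was found for 0 of the 7 and for 22.6% of filtered genes. Blocks that did not overlap were seen for 0 of the 7 genes in either direction, against 4.49% of filtered genes with the BRP564 block above and 3.7% with it below. Neither count of the 7 stood above its background. On the log2(CPM + 1) scale, the median difference between the block medians over all filtered genes was 0.39 in favour of the BRP564 block (0.20 with TMM factors and 0.10 with DESeq2 size factors), and 5 of the 7 genes, all but Dhcr7 and Srebf2, had a difference above 0.39. Which genes passed 2-fold turned on single cells. It was 1 gene, Sqle, without any one of BRP566, BRP567, BRP569, BRP572, BRP539 or BRP540, 4 without BRP529 or BRP537, and 5 without any one of BRP541, BRP542 or BRP543. Sqle passed in every one of these settings.

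Set against the F block, all 7 genes had a median at least 2-fold higher in the other BRP block, as had 76.7% of filtered genes, and all 7 had one in the BRP564 block, as had 85.1%. The median of the F block was 0 for 61.6% of filtered genes. The other BRP block lay wholly above the F block for 1 gene, Srebf2, and for 12.7% of filtered genes. The BRP564 block lay wholly above it for 2 genes, Sqle and Srebf2, and for 28.3%. With F7, F11, F12 and F16 left out, the medians of the 4 remaining F cells were 33.9 CPM for Fdft1 and 137.0 CPM for Cyp51, which are above the medians of the other BRP block. The genes at least 2-fold higher in the other BRP block were then 5, all but Fdft1 and Cyp51, beside 68.0% of filtered genes, and in the BRP564 block 4, Hmgcs1, Sqle, Insig1 and Srebf2, beside 77.0%. With DESeq2 size factors, 5 genes were at least 2-fold higher in the other BRP block and 6 in the BRP564 block, and the Dhcr7 median of the BRP564 block was 0.78 times that of the F block. With counts summed over each block, Dhcr7 was higher in the F block, at 263.3 CPM against 22.4 in the other BRP block and 10.99 in the BRP564 block, through F7.

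Correlations among the 7 genes differed in sign between pairs. Over the 12 cells of the other BRP block, 19 of 21 pairs of genes had a positive rank correlation, with a median rho of 0.31. The highest was that of Sqle and Cyp51 (Pearson r 0.62, Spearman rho 0.78). In the BRP564 block, 9 of 21 pairs were positive over 8 cells, from a rho of -0.90 for Cyp51 and Insig1 (r -0.91) to 0.83 for Fdft1 and Cyp51 (r 0.65). Of the 15 pairs without Srebf2 in the F block, 10 were positive, with a median rho of 0.20. The share among other pairs of genes was not computed. Cells of 1 block may share a culture, a preparation and a sequencing run, and all values of 1 cell share its total, so these are descriptions.

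When genes with at least 10 counts in 20 cells were ranked by their rank correlation with the mean log2(CPM + 1) of the 7 genes, averaged over the blocks, the 5 most alike of the 5159 ranked were Lrrc41, Noc2l, Serf1, Arl2bp and Ube3a. Their mean rho was 0.67, 0.67, 0.66, 0.64 and 0.63. These are the highest of 5159 values over few cells, and how high the top would reach by chance was not tested, so they are a description. For Lrrc41, rho was 0.74 over the 8 cells of the BRP564 block, 0.71 over the 12 of the other BRP block and 0.58 over the 8 of the F block, with Pearson r of 0.76, 0.63 and 0.57. None of these 5 was among the listed pathway genes. Set against the mean of the 6 others, Fdft1 stood at place 440, Hmgcs1 at 461, Sqle at 625, Cyp51 at 1012 and Dhcr7 at 2886. Insig1 and Srebf2 were not ranked, as neither had 10 counts in 20 cells.

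The 41 other genes described here for cholesterol and fatty acid metabolism give the setting. Of these, 21 had a median at least 2-fold higher in the BRP564 block and 7 one at least 2-fold higher in the other BRP block. The BRP564 block lay wholly above for 6 of them, and wholly below for 1. Of the 38 that passed the filter, 52.6% and 18.4% were past 2-fold in these directions, beside 38.5% and 22.6% of all filtered genes, and 15.8% and 2.63% did not overlap, beside 4.49% and 3.7%. On the log2(CPM + 1) scale, the median over each list of the difference between the BRP564 and the other BRP medians was 0.81 for the mevalonate arm, 1.64 for the squalene and sterol arm and 0.75 for SREBP control, the 7 genes included. It was -0.015 for uptake and trafficking, 1.15 for efflux and turnover and 0.55 for fatty acid synthesis, against the 0.39 of all filtered genes. Against the F block, 32 of the 41 had a median at least 2-fold higher in the other BRP block and 0 one at least 2-fold higher in the F block, and 29 had an F median of 0. Of the 38 past the filter, these were 84.2% and 68.4%, beside 76.7% and 61.6% of all filtered genes. A low F median could go with a single very high cell, as for Insig2 (F median 0.0903 CPM, highest F cell 1777 CPM). Markers of astrocytes differ between these blocks too, with 9 of 10 at least 2-fold higher in the BRP564 block, and their part in these differences was not tested.

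The share of a list at least 2-fold higher in the BRP564 block, and in the other BRP block, stands beside 38.5% and 22.6% of all filtered genes. These shares were 42.9% and 0% in the mevalonate arm, 54.5% and 0% in the squalene and sterol arm and 42.9% and 14.3% in SREBP control. They were 44.4% and 33.3% in uptake and trafficking, 62.5% and 25% in efflux and turnover and 33.3% and 16.7% in fatty acid synthesis, with 6 to 11 genes in a list.

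Of the 7 genes described for the mevalonate arm, Hmgcs1 included, 3 were at least 2-fold higher in the BRP564 block (Mvk, Idi1 and Fdps) and 0 in the other BRP block. Mvk, mevalonate kinase, had medians of 14.9 and 3.28 CPM. Fdps, which makes farnesyl diphosphate, had medians of 61.3 and 29.4 CPM.

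The squalene and sterol arm held 11 genes, of which 6 were at least 2-fold higher in the BRP564 block and 0 in the other. Besides Sqle these were Lss, Tm7sf2, Msmo1, Nsdhl and Sc5d. Msmo1, a sterol methyl oxidase listed in the tables under its older symbol Sc4mol, had medians of 741.2 and 67.3 CPM. Lss, which closes the sterol ring next after Sqle, had 28.8 and 0.412 CPM, and Tm7sf2, a sterol reductase, 65.5 and 0.232 CPM. Sc5d, the desaturase just before Dhcr7, had 108.7 and 17.3 CPM. The BRP blocks overlapped for every gene of this arm. The highest Msmo1 cell held 1048 CPM in the BRP564 block and 1059 CPM in the other BRP block.

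Of the 7 genes of SREBP control, 3 were at least 2-fold higher in the BRP564 block (Srebf1, Insig1 and Mbtps1) and 1, Mbtps2, in the other BRP block. Srebf1, the relative of Srebf2 that mainly drives fatty acid genes, had the widest gap, with medians of 40.4 CPM in the BRP564 block and 0.316 CPM in the other BRP block and no overlap. Srebf2, with medians of 14.8 and 11.8 CPM, overlapped throughout. The proteases that cut SREBP ran opposite ways, with medians of 86.6 and 30.2 CPM for Mbtps1 and of 14.2 and 29.9 CPM for Mbtps2. Scap and Insig2 were within 2-fold.

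For uptake and trafficking, 4 of 9 genes were at least 2-fold higher in the BRP564 block (Scarb1, Npc1, Npc2 and Stard4) and 3 in the other BRP block (Lrp1, Vldlr and Mylip). Vldlr, a receptor for apolipoprotein E and reelin, had medians of 7.96 and 180.6 CPM. Lrp1 had 40.5 and 86.0 CPM. Lrp8, the other reelin receptor, was level at 140.3 and 141.8 CPM, with a highest F cell of 5316 CPM. Npc2, which carries cholesterol in the lysosome, had 142.4 and 7.38 CPM, and its blocks did not overlap. Mylip, a ubiquitin ligase that marks lipoprotein receptors for degradation, had 1.02 and 12.7 CPM.

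In efflux and turnover, Apoe and Abca1, which carry and export cholesterol, had medians of 901.4 and 575.9 CPM in the BRP564 block and of 3.53 and 27.8 CPM in the other BRP block, with no overlap. In this list, 5 of 8 genes were at least 2-fold higher in the BRP564 block (Apoe, Abca1, Nr1h2, Nr1h3 and Soat1) and 2 in the other BRP block (Abcg1 and Cyp46a1). Nr1h3 did not pass the filter on counts, and Nr1h2 was low, with medians of 3.03 and 1.28 CPM. Apoe is known as an astrocyte gene, and Cyp46a1, the neuronal enzyme of cholesterol removal, ran the other way with 4.75 and 31.1 CPM. Of the 6 genes of fatty acid synthesis, 2 were at least 2-fold higher in the BRP564 block and 1 in the other BRP block. The desaturases Scd1 and Scd2 lay wholly above in the BRP564 block, with medians of 559.2 and 2393 CPM against 9.64 and 638.6 CPM. Elovl6, an elongase, lay wholly below, with medians of 46.9 against 173.3 CPM. This was by a narrow margin, as the highest BRP564 cell held 75.25 CPM and the lowest of the other BRP block 75.62 CPM. The lists thus held genes with far wider gaps between the BRP blocks than any of the 7 genes, whose widest was the 3.14-fold of Sqle.

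**Figure D4:**
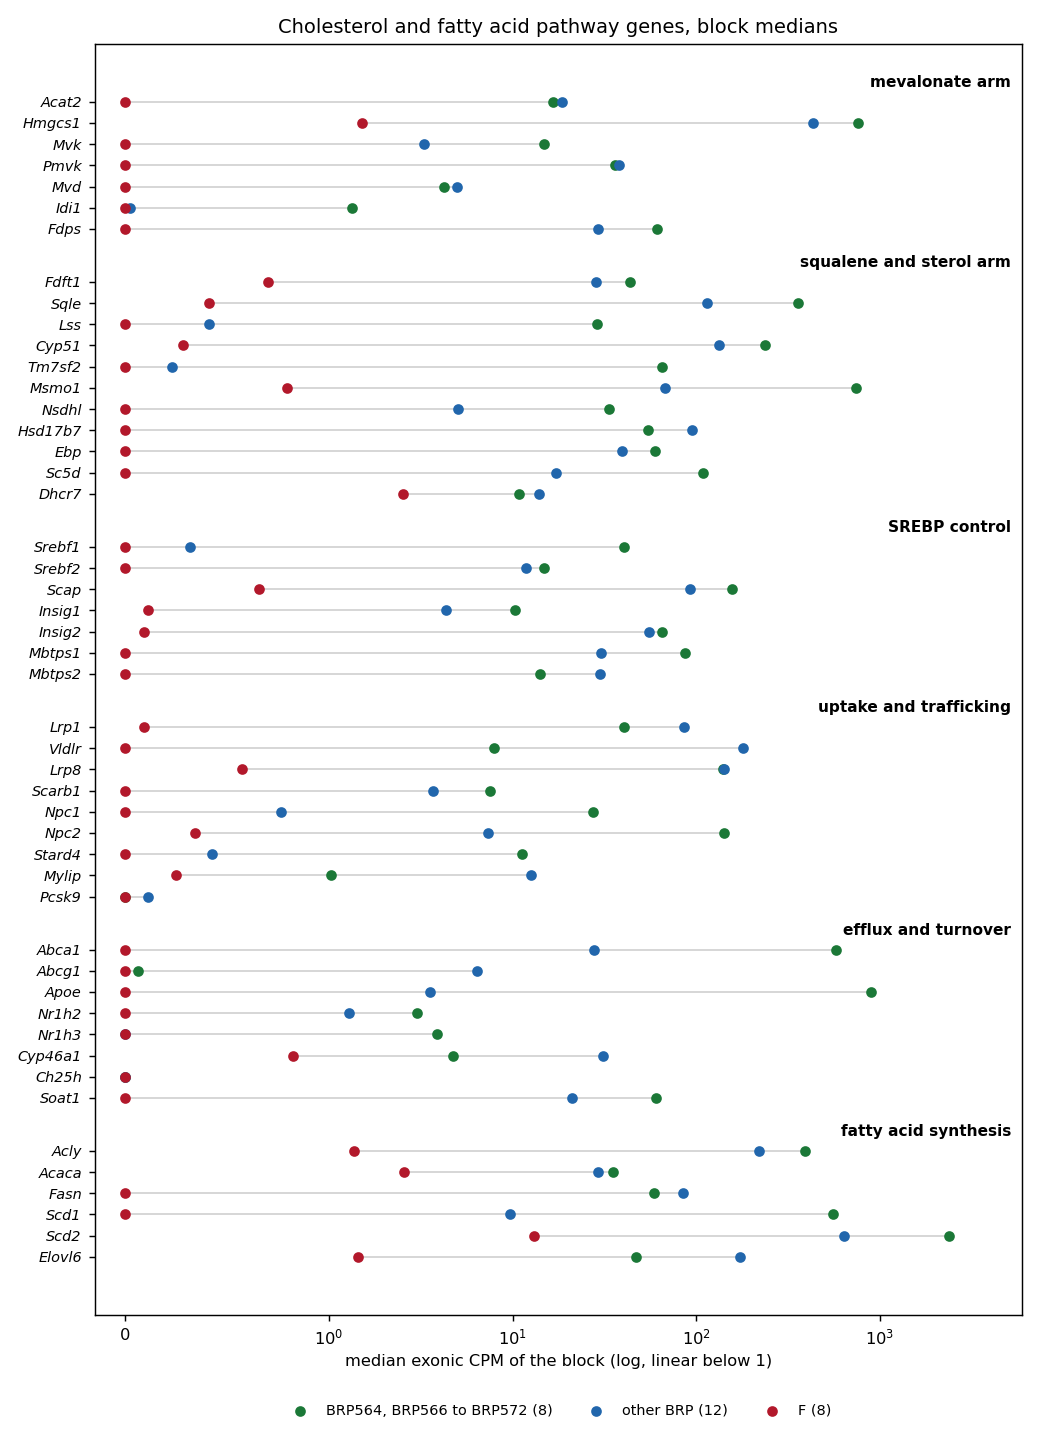
Median exonic CPM in each block for the listed genes of cholesterol and fatty acid metabolism, on an axis that is logarithmic above 1 and linear below, with 1 point per block and the genes grouped by list. Points of the BRP564 block lie far to the right of the other BRP block for Msmo1, Srebf1 and Apoe and to the left for Vldlr, and F medians sit at or near 0 for most genes.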

How the data were processed

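Single-cell RNA libraries of 28 mouse cells were available as 2 tables of deposited counts, which the authors made as whole-number counts of reads per gene over exons and over introns, not normalized. The submitters' processing notes name bcl2fastq 2.17, STAR 2.4.0 and the mm10 build. The counting tool and annotation are not given in the sources used here. Counts were divided by the exonic total of the cell and given as CPM. The 28 cells could not be matched to labelled samples and are not separable replicates, so no test was run and medians and ranges over blocks are printed. A gene counted as differing when the higher block median was at least 1 CPM and at least 2-fold the other. The steps were tested on simulated data. Named by rule were the 7 genes, Lrp1, Vldlr and Lrp8, at most 4 genes of a list past 2-fold in a pair of blocks by size, and the 5 genes most alike; other list genes were named after their values were seen, to spell out counts or show high cells. Some listed genes are not reported here and were left out of the list counts and medians, after values were seen. The genes, lists and blocks were chosen with earlier results of these data known. Gene positions and exon lengths came from GENCODE M21. Alternatives were other scalings (TMM of edgeR 4.0.16, size factors of DESeq2 1.42.0), intronic counts, summed counts, no filter and each cell left out. Python 3.11.15, pandas 2.3.3, scipy 1.17.1 and R 4.3.3 were used. Depth intervals and limits cover counting error only.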

Additional observations from a re-analysis of the deposited data

Results flagged for a closer look

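Single cells stood apart from the rest of their block in 9 of the values examined, by the gap of the highest cell to its nearest neighbour as a share of the block's range (above Dixon's 95% critical value for 8 cells). Chance marks about 1 in 20 groups of normally distributed values. That rate does not hold for the F values, which are mostly at or near 0 with a few high cells, so the marks are descriptions and no test. Genes of 1 cell share its total. The 12 cells of the other BRP block were not examined in this way.

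In the BRP564 block, BRP568 held 3416 CPM of Hmgcs1 (gap share 0.71), and 4755 CPM of the 7 genes summed (0.783). In the F block the highest cell stood apart for 6 genes. These were F7 for Hmgcs1 at 551 CPM (0.756), F6 for Sqle at 114.2 CPM (0.99) and F1 for Fdft1 at 240.8 CPM (0.776). They also included F2 for Cyp51 at 763 CPM (0.645), F7 for Dhcr7 at 1526 CPM (0.973) and F1 for Insig1 at 9.03 CPM (0.843). The summed level of F7, 2077 CPM, was marked as well (0.558). F7 also held 4350 CPM of Slc1a2 and 3210 CPM of Olig1, with at most 13.1 CPM of all other astrocyte and 176.6 CPM of all other oligodendrocyte markers, and their part in its values was not tested.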

How the results depend on the processing

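Of 321 combinations of a value and a setting, 280 stayed within their limits, and of 84 medians of single genes 79 did. The limit for a median was the standard deviation over its block's cells, and for a count a set ratio. That limit is wide in the F block. There the median sum of 214.1 CPM and that of 563.4 with DESeq2 size factors counted as unchanged. So did the Hmgcs1 median, at 1.51 and 21.0. The tally therefore does not show that F values held. The genes at least 2-fold higher in the BRP564 block than in the other BRP block were 2, but 1 with DESeq2 size factors and 1 with counts summed over the block, and 1 to 5 with each cell left out in turn. In the other direction they were 0, but 1 (Dhcr7) with summed counts, and 0 to 1 with each cell left out, the 1 being Dhcr7 without BRP566, BRP568, BRP569 or BRP572. Against the F block, the genes at least 2-fold higher in the other BRP block were 7, and 4 with summed counts, where 1 gene was higher in the F block, 5 with DESeq2 size factors and 6 without F columns under 5000000 counts. For the BRP564 block they were 7, and 4 without F7, F11, F12 and F16, a setting chosen after seeing the data, 5 without the shallow F columns and 5 with summed counts, and 1 gene was higher in the F block with summed counts. The count of genes with the other BRP block wholly above the F block went from 1 to 0 with intronic counts added, and that for the BRP564 block from 2 to 1 with TMM factors and 1 with DESeq2 size factors. With each cell left out, the median sums ran from 1372 to 1497, 763.1 to 767.2 and 168.1 to 260.0 CPM. Each block has an even number of cells, so such a median is always a middle cell, and these ranges do not measure spread. Without the filter on low counts, 23.7% and 13.1% of genes passed 2-fold between the BRP blocks in place of 38.5% and 22.6%. No paired analysis was possible because the column codes carry no replicate number and no test was run. Depth limits the F block most, where 3 counts in F16 are 3.58 CPM, above the F median of each of the 7 genes.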
